A study of Mus musculus with 2 samples.

Results

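The genes described here are 50 cell cycle genes, taken as a listed set of S-phase genes and G2/M-phase genes and kept because each has a row in the count table of both plates. They make up 50 of 16943 genes in those tables, 21 on the S list and 29 on the G2/M list, and none of the 50 was missing. S genes make the parts that copy DNA. They include the MCM helicase subunits that are loaded on replication origins, the sliding clamp PCNA, and the enzymes that supply nucleotides. G2/M genes make the parts that divide the copied chromosomes: CDK1 and its cyclins, the spindle checkpoint kinases, kinetochore and spindle proteins, and the condensins and topoisomerases that shape mitotic chromosomes. In the intestinal crypt these genes are active in stem cells and transit-amplifying cells. Cells that commit to the endocrine fate express Neurog3 for a short time and are known to leave the cell cycle around that step, before they mature into enterochromaffin cells (Tph1) or peptide hormone cells. Goblet cells (Muc2) belong to the same secretory branch.

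The study treated mouse organoids, miniature gut epithelia grown from jejunum and ileum, for 48 h with the small molecule ISX-9 or with the solvent DMSO. Both groups carried the Neurog3-RFP reporter in homozygous form, so the reporter allele is shared by control and treated cells and no group without it is used here. RFP-positive cells were sorted one by one into 384-well plates and processed by SORT-seq, in which each well receives its own barcoded primer and the amplified cDNA is read near its 3' end. There was 1 plate per treatment, so no difference between DMSO and ISX-9 has a replicate check and no p-value is given. The plate, its library and the treatment cannot be told apart.

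Wells with at least 2000 reads of nuclear genes and at least 500 genes were kept, 300 of 384 with DMSO and 290 of 384 with ISX-9. Their reads, without spike-in and mitochondrial rows, came to 14754827 with DMSO and 11801859 with ISX-9. A well held between 2295 and 489134 reads with DMSO (median 26340) and between 2007 and 326339 with ISX-9 (median 22509.5). A member with no read in a whole plate could still have been present at up to 0.203 CPM with DMSO and 0.254 CPM with ISX-9, where CPM is the read count of a gene scaled to a fixed total of nuclear reads. The gene that defines the sort, Neurog3, had a read in 49.0% of the kept wells with DMSO and in 72.8% with ISX-9. Of 8 immune and mesenchymal markers, 4 had no read in each plate, and the summed level of all 8 was 1.29 CPM with DMSO and 6.52 CPM with ISX-9. The plates used the same 384 well barcodes, as both came from the same primer set. Doublets were not called.

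Promoters of the members are shown first, because the lists differ in short sequence motifs as well as in timing. RefSeq promoters (build GRCm38.p6, 250 bases before to 50 bases after an annotated start) were found by symbol for 41 of the 50 members: 25 promoters of 25 G2/M genes and 19 promoters of 16 S genes. 3 kinds of motif were searched on both strands. The CHR type, named after the cell cycle genes homology region, was searched as TTTGAA or TTTAAA. The box bound by NF-Y was searched as CCAAT. The E2F type was searched as TTTCCCGC, TTTCGCGC, TTTGGCGC or TTTGCCGC. Capitals in the sequences below mark matches on either strand, read 5′ to 3′ along the gene's own strand. TTTAAA is its own reverse complement, and E2F-type matches on opposite strands can overlap, as they do in Mcm5 and Mcm6. The 6 promoters were chosen to show a G2/M cyclin (Ccnb2, chr9:70421505-70421804, minus strand), the activator of the anaphase-promoting complex (Cdc20, chr4:118437294-118437593, minus strand), DNA topoisomerase II alpha (Top2a, chr11:99024140-99024439, minus strand), an S gene with a CHR-type match at its start (Rrm2, chr12:24708004-24708303, plus strand) and a pair of MCM helicase genes (Mcm5, chr8:75109259-75109558, plus strand, and Mcm6, chr1:128359656-128359955, minus strand).
Ccnb2: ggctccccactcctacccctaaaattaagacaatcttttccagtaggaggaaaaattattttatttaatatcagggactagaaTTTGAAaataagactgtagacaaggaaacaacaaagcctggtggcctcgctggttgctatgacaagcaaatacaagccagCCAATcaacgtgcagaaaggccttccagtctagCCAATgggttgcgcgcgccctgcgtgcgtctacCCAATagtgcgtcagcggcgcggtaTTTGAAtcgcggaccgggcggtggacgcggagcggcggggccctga
Cdc20: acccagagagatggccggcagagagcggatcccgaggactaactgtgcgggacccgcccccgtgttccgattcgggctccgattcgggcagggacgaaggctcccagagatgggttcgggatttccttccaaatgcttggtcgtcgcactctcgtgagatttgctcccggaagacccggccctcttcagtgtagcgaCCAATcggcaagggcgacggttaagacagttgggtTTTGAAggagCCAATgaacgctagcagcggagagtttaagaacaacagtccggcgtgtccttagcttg
Top2a: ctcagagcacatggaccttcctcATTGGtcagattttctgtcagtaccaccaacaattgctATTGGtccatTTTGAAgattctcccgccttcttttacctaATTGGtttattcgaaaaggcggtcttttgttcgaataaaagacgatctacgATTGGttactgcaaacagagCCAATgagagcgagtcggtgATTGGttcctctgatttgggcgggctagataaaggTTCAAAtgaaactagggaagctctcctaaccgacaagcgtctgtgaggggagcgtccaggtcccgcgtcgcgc
Rrm2: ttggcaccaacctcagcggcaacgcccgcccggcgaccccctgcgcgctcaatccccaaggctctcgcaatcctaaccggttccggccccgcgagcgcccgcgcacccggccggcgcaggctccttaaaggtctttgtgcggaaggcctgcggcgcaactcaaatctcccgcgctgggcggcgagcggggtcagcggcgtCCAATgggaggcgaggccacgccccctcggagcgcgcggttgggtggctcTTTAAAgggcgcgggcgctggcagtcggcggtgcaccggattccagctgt
Mcm5: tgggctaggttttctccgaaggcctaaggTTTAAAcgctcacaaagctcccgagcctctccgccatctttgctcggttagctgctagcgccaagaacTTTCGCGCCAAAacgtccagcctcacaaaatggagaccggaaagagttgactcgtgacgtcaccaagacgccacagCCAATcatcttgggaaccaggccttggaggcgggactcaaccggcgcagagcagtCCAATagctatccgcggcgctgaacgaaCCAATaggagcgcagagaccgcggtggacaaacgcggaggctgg
Mcm6: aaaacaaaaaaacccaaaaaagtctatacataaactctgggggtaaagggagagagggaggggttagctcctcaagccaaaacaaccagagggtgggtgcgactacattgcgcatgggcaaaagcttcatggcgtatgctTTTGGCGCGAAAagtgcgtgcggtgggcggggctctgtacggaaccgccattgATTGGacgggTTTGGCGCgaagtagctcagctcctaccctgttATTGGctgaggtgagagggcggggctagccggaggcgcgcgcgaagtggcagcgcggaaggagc

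A CHR-type match lay in 21 of 25 G2/M promoters (84.0%), in 6 of 19 S promoters (31.6%) and in 27.6% of all 32851 promoters of the same length. The 4 G2/M promoters without one belonged to Bub1, Neil3, Nusap1 and Troap. Within 50 bases of the start, a window chosen after the match positions were seen, the shares were 68.0%, 15.8% and 8.28%. In Ccnb2 the nearest match began at position 4 and in Cdc20 at position -18, counted from the annotated start as 0. An NF-Y box lay in 22 of 25 G2/M promoters (88.0%), in 12 of 19 S promoters (63.2%) and in 37.4% of all promoters, and Ccnb2 held 3 of them at positions -87, -54 and -21. The E2F type had the opposite order, with 8 of 19 S promoters (42.1%), 2 of 25 G2/M promoters (8.00%, Cdk1 and Ncapg) and 2.26% of all promoters. Mcm6 held 3 E2F-type matches and no CHR-type match. Rrm2, which encodes the small subunit of ribonucleotide reductase, held a CHR-type match at position 0 and no E2F-type match in this window. A match describes letters in the sequence and says nothing about binding, and several promoters share a gene (Fen1, Mcm7 and Uhrf1).

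**Figure D1:**
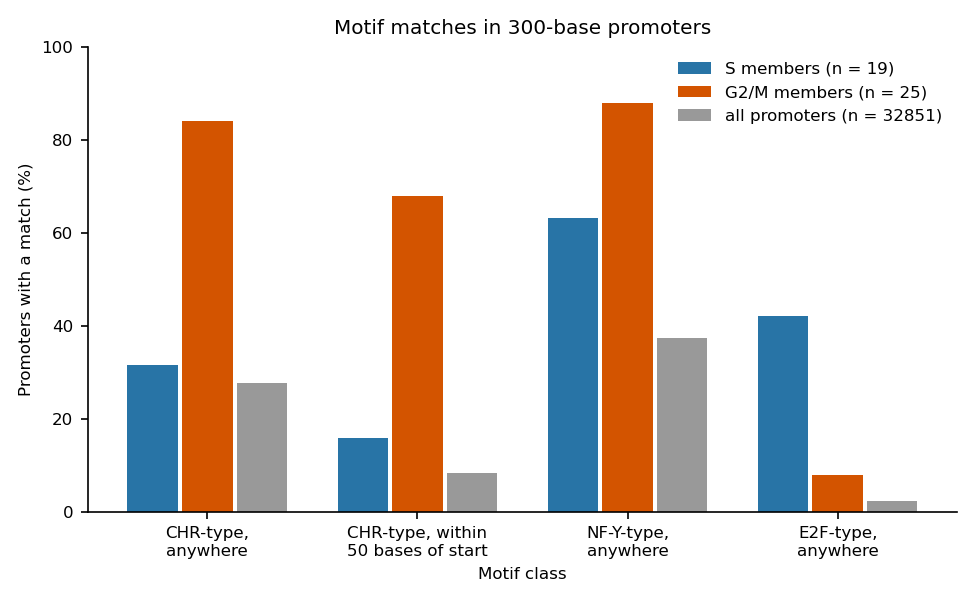
Bars give the percent of promoters with at least 1 match for S members, G2/M members and all RefSeq promoters of the same length. G2/M promoters are the highest for the CHR type (84.0%) and the NF-Y type (88.0%), and S promoters for the E2F type (42.1%).

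The question set by the treatment is whether the proliferative part of the sorted cells differed after ISX-9. Pooled over all kept wells of a plate, each list summed to nearly the same level in both. The 29 G2/M genes summed to 1494 CPM with DMSO and 1670.2 CPM with ISX-9, and the 21 S genes to 1499.5 and 1604 CPM. On the scale of log2 of (CPM + 5), ISX-9 over DMSO, the median was 0.06 over G2/M members and 0.10 over S members, beside 0.15 over 9106 genes whose mean over the compared groups reached 10 CPM. Relative to that all-gene median, 14 of 29 G2/M members and 7 of 21 S members were higher with ISX-9. These counts depend on the setting: 15 of 21 S members were above the median of all genes with no filter on low values (0.08), and 5 of 29 G2/M members were above it without the deepest 5% of wells. No member was 2-fold apart, while 4.51% of those 9106 genes were at least 2-fold higher and 1.19% at least 2-fold lower with ISX-9. The intervals given below are 95% exact Poisson intervals. They cover counting error only, not the spread between cultures, and amplified reads are not independent molecules.

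**Figure D2:**
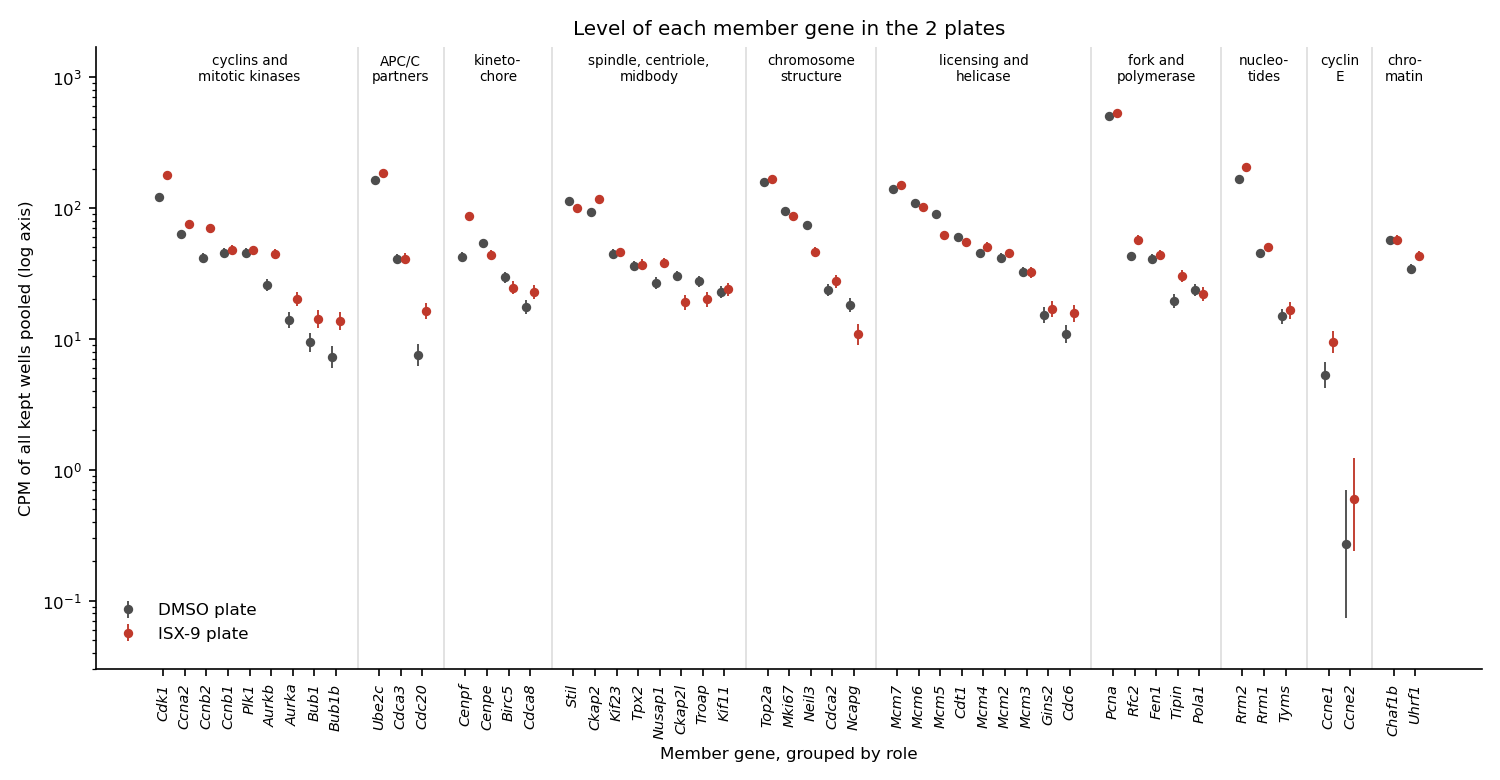
Points give the CPM of each member in the pooled kept wells of the DMSO and the ISX-9 plate on a log axis, with 95% Poisson intervals, grouped by role. The intervals of many pairs do not meet. Among these, Ccnb2, Aurkb, Cenpf, Cdc20, Cdk1, Rrm2 and Tipin sit higher with ISX-9, and Mcm5, Neil3, Ncapg, Ckap2l and Troap lower.

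The cyclins and mitotic kinases had the highest median of the G2/M roles, 0.42 on the log2 scale, with 7 of 9 genes above the all-gene median. That number was 7 under each scaling tried, 8 without the highest well of each gene, 4 with every well thinned to 2000 reads and 2 without the deepest 5% of wells. Cdk1, the kinase that drives entry into mitosis, stood at 121 CPM (116 to 127) with DMSO and 178 CPM (170.4 to 186) with ISX-9, a log2 ratio of 0.53. A single ISX-9 well held 21.7% of its reads on that plate. Ccnb2, a B-type cyclin that partners CDK1, stood at 41.7 CPM (38.5 to 45.1) and 69.9 CPM (65.2 to 74.8), a log2 ratio of 0.68. Its relative Ccnb1 stood at 45.5 and 47.7 CPM, with overlapping intervals. Ccna2, the cyclin of S phase and G2, stood at 63.0 and 75.0 CPM. Aurkb, the kinase of the chromosomal passenger complex, stood at 25.8 CPM (23.3 to 28.6) and 44.3 CPM (40.6 to 48.3), a log2 ratio of 0.68. In thinned wells that ratio was -0.97, from 17 and 7 reads, and with each well weighted equally it was 0.21. Aurka, a spindle pole kinase, stood at 14.0 and 20.3 CPM, and Plk1, which acts at centrosomes and kinetochores, at 45.5 and 47.5 CPM. The checkpoint kinase Bub1 stood at 9.42 and 14.2 CPM, and its partner Bub1b at 7.25 and 13.6 CPM. Between plates the intervals of Ccna2, Aurka, Bub1 and Bub1b did not meet, while those of Plk1 overlapped.

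The partners of the anaphase-promoting complex, the ubiquitin ligase that ends mitosis, were close between plates except for Cdc20. Ube2c, its ubiquitin-conjugating enzyme, stood at 164 CPM (158 to 171) with DMSO and 186 CPM (179 to 194) with ISX-9. Cdc20, its activator, stood at 7.52 CPM (6.19 to 9.06) and 16.4 CPM (14.1 to 18.8), a log2 ratio of 0.77. Cdca3, a target of the same ligase, stood at 41.1 CPM in both plates. Among kinetochore and passenger genes, Cenpf had the highest log2 ratio of all members, 0.96, at 42.3 CPM (39.0 to 45.7) and 87.0 CPM (81.8 to 92.5). A single ISX-9 well held 23.8% of its reads, and in thinned wells its ratio was 0.12. The kinetochore motor Cenpe stood at 54.1 and 43.6 CPM, a log2 ratio of -0.28. Birc5 (survivin) stood at 29.5 and 24.6 CPM, and Cdca8 (borealin), its partner in the passenger complex, at 17.6 and 22.7 CPM.

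Genes of the spindle, the centriole and the midbody had a median log2 ratio of 0.03. Stil, needed to build centrioles, stood at 113 CPM with DMSO and 99.4 CPM with ISX-9, and Ckap2, a microtubule-associated protein, at 93.1 and 117 CPM. Nusap1, which bundles spindle microtubules, stood at 26.8 and 38.1 CPM. The kinesins Kif11, which separates the spindle poles, and Kif23, which works in the midzone, differed by 0.06 and 0.03 on the log2 scale. Tpx2, the activator of Aurora A, stood at 36.1 and 36.9 CPM. Ckap2l stood lower with ISX-9, at 30.3 and 19.1 CPM, as did Troap, at 27.5 and 20.1 CPM. For Troap, 30.05% of the DMSO reads came from a single well.

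Genes of chromosome structure had a median of -0.11. Top2a, which untangles sister DNA, stood at 159 CPM (153 to 166) with DMSO and 166 CPM (159 to 173) with ISX-9. Mki67, the coat protein of mitotic chromosomes behind the Ki-67 stain, stood at 94.4 CPM (89.5 to 99.5) and 87.4 CPM (82.1 to 92.9). Neil3, a DNA glycosylase, had the lowest log2 ratio of the G2/M list, -0.63, at 74.3 and 46.3 CPM. The condensin subunit Ncapg stood at 18.2 and 10.8 CPM, a log2 ratio of -0.55, with 30.1% of DMSO reads in 1 well. Cdca2, which recruits a phosphatase to chromatin, stood at 23.6 and 27.5 CPM.

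The S list showed a narrower range, from -0.49 for Mcm5 to 0.53 for Tipin. Among genes of origin licensing and the helicase, Mcm5 stood at 90.0 CPM (85.2 to 94.98) with DMSO and 62.4 CPM (58.02 to 67.1) with ISX-9. It was the only MCM gene outside the range from -0.09 to 0.16, and it was lower with ISX-9 under each of 13 settings. Mcm7 stood at 139.9 and 151 CPM, Mcm6 at 109.5 and 103 CPM, Mcm4 at 44.9 and 50.8 CPM, Mcm2 at 41.6 and 45.0 CPM, and Mcm3 at 32.4 and 32.2 CPM. Cdt1, which loads the MCM complex with Cdc6, stood at 60.5 and 54.9 CPM. Cdc6 itself stood at 10.9 and 15.7 CPM, and the helicase factor Gins2 at 15.2 and 16.9 CPM. At the fork, Pcna stood at 505 CPM (494 to 517) and 535 CPM (522 to 549). The clamp loader gene Rfc2 stood at 42.7 and 57.4 CPM, the flap nuclease gene Fen1 at 41.0 and 43.8 CPM, and the polymerase gene Pola1 at 23.7 and 22.2 CPM. Tipin, a fork protection factor, stood at 19.5 CPM (17.3 to 21.8) and 30.3 CPM (27.3 to 33.6).

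For nucleotide supply, Rrm2 stood at 166 CPM (159 to 173) with DMSO and 206 CPM (198 to 215) with ISX-9. Rrm1, the large subunit of the same enzyme, stood at 45.2 and 49.9 CPM, and Tyms, thymidylate synthase, at 14.9 and 16.5 CPM. The chromatin genes Uhrf1, which keeps DNA methylation through replication, and Chaf1b, a histone chaperone subunit, stood at 34.1 and 43.3 CPM and at 56.6 and 57.3 CPM. Cyclin E, which starts S phase with CDK2, was hardly read. Ccne1 had 78 reads with DMSO (5.29 CPM) and 112 with ISX-9 (9.49 CPM), and Ccne2 had 4 and 7 reads. Both lay under the mean of 10 CPM used for the all-gene median.

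Other genes of the cell cycle, from lists beyond the members, gave much the same picture between plates. Of 35 further G2/M genes, 24 had a log2 ratio above 0 on this scaling and the median was 0.17. Over all 16943 genes 64.1% were above 0, which is the share to read the counts of these lists against. The widest differences were Gtse1, a G2 regulator, at 16.2 and 37.5 CPM, Psrc1 at 16.5 and 37.8 CPM, the kinetochore gene Spc25 at 18.2 and 37.0 CPM, and the cyclin gene Ccnf at 15.3 and 30.8 CPM. Of 34 further S genes, 20 were above 0 and the median was 0.03, with Clspn at 16.2 and 29.6 CPM and Cdca7 at 158 and 105 CPM at the ends. Among G1 cyclins and their kinases, Cdk6 was the only gene 2-fold apart, at 26.2 CPM with DMSO and 8.90 CPM with ISX-9. Myc stood at 119.6 and 218 CPM, Cdk4 at 419 and 551 CPM, and Ccnd1 at 244 and 268 CPM. Of 20 genes of the E2F, RB and DREAM group, which switch these programmes on and off, 15 were above 0, with E2f1 at 10.4 and 18.6 CPM and Mybl2 at 8.81 and 15.8 CPM. Among inhibitors of the cyclin-dependent kinases, Cdkn1c (p57) stood at 76.0 and 173 CPM, a log2 ratio of 1.13, while Cdkn1a (p21) stood at 439 and 337 CPM and Cdkn1b (p27) at 333 and 396 CPM. A single well held 46.4% of the Cdkn1c reads in the 237 ISX-9 wells that are called high in neither list below.

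The pooled levels come from few wells. In the middle well of each plate the 29 G2/M genes summed to 174 CPM with DMSO and 164 CPM with ISX-9, and no G2/M read was seen in 74 DMSO wells and 66 ISX-9 wells. The highest well reached 14824 CPM with DMSO and 14980 CPM with ISX-9, with all 29 genes read in a well of each plate. The 10% of wells with the highest sums held 67.9% of the summed G2/M CPM with DMSO and 69.9% with ISX-9. For the S genes that share was 50.2% and 48.3%, and the middle well stood at 271 and 368 CPM. S reads were thus less concentrated in a few wells than G2/M reads on both plates.

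A well was called G2/M-high or S-high where the genes of that list summed to at least 1000 CPM and at least 5 of them had a read. This is a range of a score and not a cell type. By that rule 39 DMSO wells (13.0%, 95% exact binomial interval 9.41 to 17.3%) and 34 ISX-9 wells (11.7%, 8.26 to 16.0%) were G2/M-high. S-high wells numbered 56 (18.7%, 14.4 to 23.5%) and 45 (15.5%, 11.5 to 20.2%). These intervals cover the sampling of wells from 1 plate only, and those of the plates overlap for both lists. Many wells lay near the cut: 47 DMSO and 50 ISX-9 wells had a G2/M sum between 500 and 2000 CPM, and 77 and 84 an S sum in that range. Depth bears on the call, since G2/M-high wells had a median of 67103 reads with DMSO and 101907 with ISX-9, against 23352 and 19296 in the other wells. With each well thinned to 2000 reads and at least 2 members read, 60 of 300 wells with DMSO and 64 of 290 (22.1%) with ISX-9 were G2/M-high, and 23.3% and 23.1% S-high. After thinning the G2/M-high share was thus the higher one with ISX-9.

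**Figure D3:**
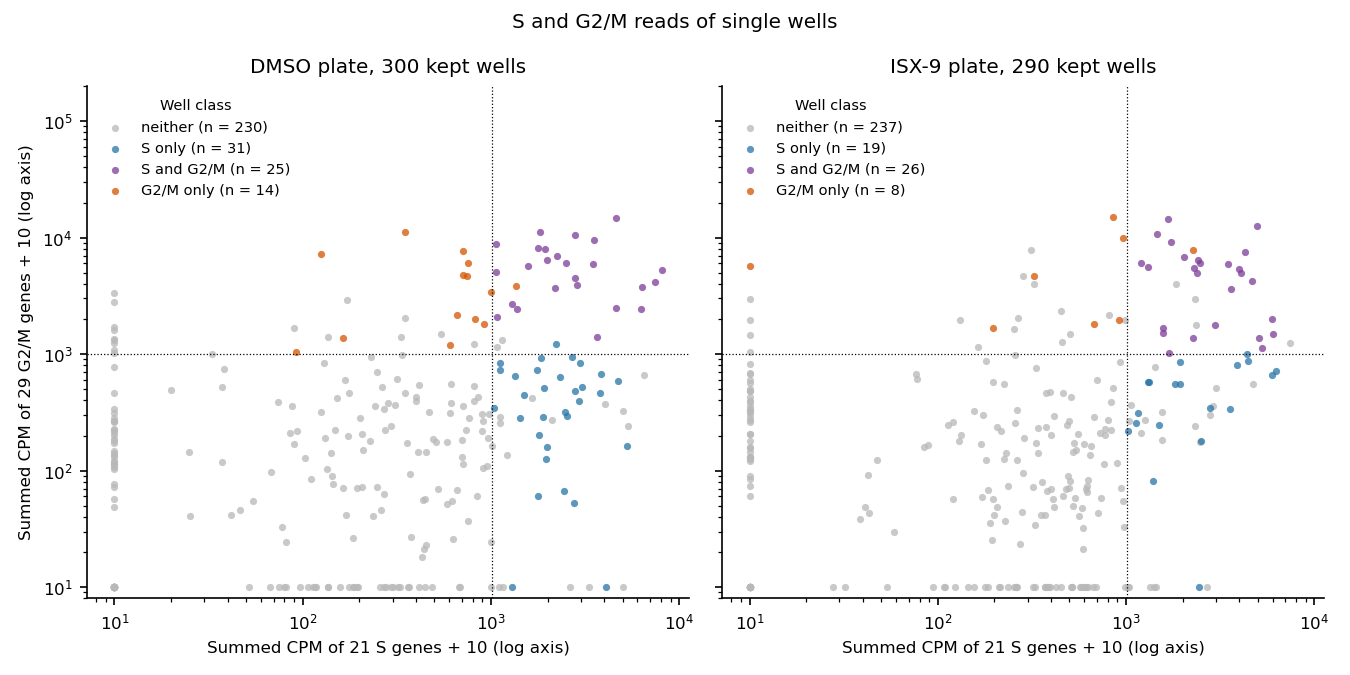
Each point is a kept well, with the summed CPM of the S genes on the x axis and of the G2/M genes on the y axis (log axes, 10 added), coloured by class, with dotted lines at 1000 CPM. Points past a line that stay grey had fewer than 5 genes of that list read, and the wells high in both lists (25 with DMSO, 26 with ISX-9) form the upper right group on each plate.

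The share of wells in which a member was read was set beside wells rich in Tph1, a marker of a differentiated cell type. There were 47 DMSO wells and 37 ISX-9 wells with at least 2000 CPM of Tph1, with medians of 16300 and 15741 reads against 29188 and 25559 in all other wells. Cdc20, Ckap2l, Troap and the rarely read Ccne2 had no read in any of these wells, which allows a share of wells with a read of up to 6.38% with DMSO and 8.11% with ISX-9, taking 3 wells as the limit. It does not limit the share of wells that express the gene, as a low transcript is often missed at these depths. In the G2/M-high wells of the DMSO plate Cdc20 was read in 51.3%, Ckap2l in 61.5% and Troap in 38.5%. Top2a was read in 14.9% of Tph1-rich DMSO wells, in 34.4% of the other wells and in 94.9% of the G2/M-high wells. Ube2c was the most widely read G2/M gene, in 25.5% of Tph1-rich wells, 42.7% of other wells and 92.3% of G2/M-high wells with DMSO. For these genes the gap was smaller with ISX-9: Ube2c was read in 32.4% of Tph1-rich and 34.0% of other wells, and Top2a in 18.9% and 24.5%. Some members had a wider gap with ISX-9. Cdk1 was read in 12.8% and 21.7% of these wells with DMSO and in 2.70% and 21.7% with ISX-9. For Ccnb2 the shares were 6.38% and 14.6% with DMSO and 0% and 17.8% with ISX-9. Pcna was read in 31.9% of Tph1-rich DMSO wells and 43.2% of Tph1-rich ISX-9 wells, against 50.2% and 47.8% of other wells, so the share in Tph1-rich wells lay close to that elsewhere with ISX-9. The level was not close: pooled over Tph1-rich ISX-9 wells Pcna stood at 114 CPM, against 535 CPM over all kept ISX-9 wells. With DMSO these values were 371 and 505 CPM. The share of Mcm7 was not close either, with a read in 8.11% of Tph1-rich and 41.5% of other ISX-9 wells. The share of all kept wells with a Pcna read was 47.3% and 47.2%, and 26.3% and 25.2% in thinned wells.

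The lists overlapped in the same wells. With DMSO, 25 wells were high in both lists, 31 in S genes only, 14 in G2/M genes only and 230 in neither. With ISX-9 these numbers were 26, 19, 8 and 237. Over wells, the summed S CPM and the summed G2/M CPM had a Spearman correlation of 0.42 with DMSO (300 wells) and 0.35 with ISX-9 (290 wells), and of 0.32 and 0.30 after thinning. The wells of a plate share a library and differ in depth, and depth itself correlated with the S sum at 0.41 and 0.40 and with the G2/M sum at 0.27 and 0.16. Wells high in neither list were shallower, with medians of 16757.5 and 16645 reads, than wells high in both, with 73890 and 123249.

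Single members differed in which class they were highest in. The classes were built from these same genes, so the values are a description only. Cdc6, which acts at licensing in G1 and early S, stood at 29.6 CPM in S-only wells with DMSO and 33.7 with ISX-9, and had no read in G2/M-only wells of either plate. Ccne1 stood at 13.6 and 21.5 CPM in S-only wells and likewise had no read in G2/M-only wells. Mcm5 stood at 194 CPM in S-only wells, 187 in wells high in both and 24.5 in G2/M-only wells with DMSO, and at 135, 136 and 6.25 CPM with ISX-9. The G2/M-only values rest on 14 DMSO wells and 8 ISX-9 wells. Rrm2 was far higher in wells high in both than in S-only wells. It stood at 176 CPM in S-only wells and 589 CPM in wells high in both with DMSO, and at 193 and 574 CPM with ISX-9, and at 17.8 and 40.6 CPM in G2/M-only wells. Rrm1 had the same order with DMSO, at 55.2, 122 and 27.8 CPM, but with ISX-9 it stood at 45.3, 103 and 65.6 CPM. Mcm7 had the order of Rrm2 on both plates, at 209, 302 and 105 CPM with DMSO and 258, 267 and 62.5 CPM with ISX-9. Pcna stood at 844, 1109.7 and 174 CPM with DMSO and at 1084, 988 and 194 CPM with ISX-9.

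Among G2/M genes, Ccnb2 and Cenpf were highest where S genes were low. Ccnb2 stood at 20.1 CPM in S-only wells, 93.9 in wells high in both and 255 in G2/M-only wells with DMSO, and at 52.9, 152 and 375 CPM with ISX-9. Cenpf stood at 15.4, 133 and 177 CPM with DMSO and at 6.98, 244 and 359 CPM with ISX-9. Aurkb had the other order on both plates, with 6.02, 114 and 13.4 CPM with DMSO and 10.5, 123 and 46.8 CPM with ISX-9. Kif11, at 97.7 against 25.6 CPM with DMSO and 68.0 against 43.7 CPM with ISX-9, was also higher in wells high in both than in G2/M-only wells. Mki67 and Top2a were already read in S-only wells, at 26.4 and 53.4 CPM with DMSO, and stood at 345 and 617 CPM in wells high in both. Stil and Ube2c changed order between plates. Stil stood at 435 CPM in wells high in both and 52.3 in G2/M-only wells with DMSO but at 273 and 365 CPM with ISX-9, and Ube2c at 623 and 280 CPM with DMSO but at 459 and 921 CPM with ISX-9.

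**Figure D4:**
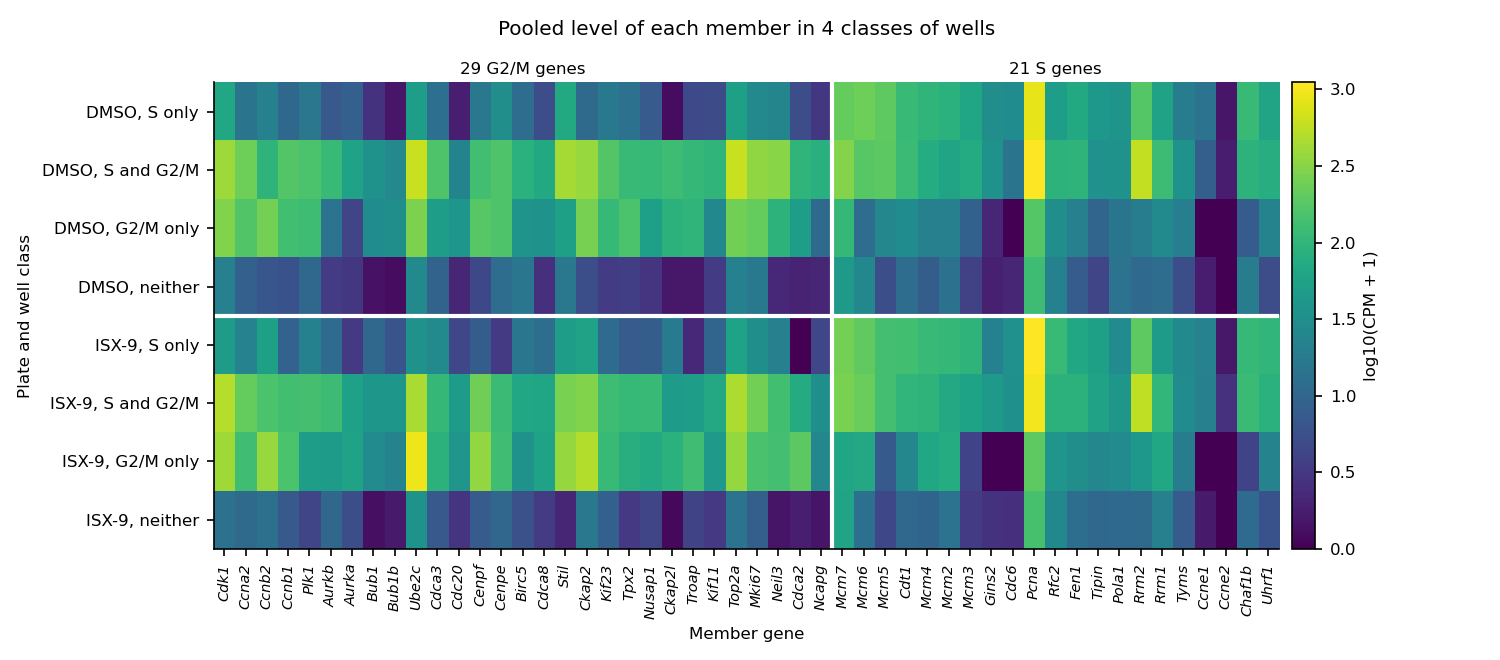
Colour gives log10 of (CPM + 1) of each member in the pooled wells of each class, with G2/M genes on the left and S genes on the right and the plates above each other. Cdc6 and Ccne1 are at 0 in G2/M-only wells of both plates, and Rrm2 is brightest in wells high in both lists.

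The members were then read along 4 genes of differentiation. Wells were split into those with no read of the gene, those below 500 CPM and those with at least 500 CPM, and the outer groups were compared. The middle group is not a middle level of expression: a gene at a low level is seen mainly in deep wells, and this group had the highest median depth of the 3 for each gene on both plates. Its share of G2/M-high wells was also the highest in each case, for example 27.5% (18.6 to 37.8%) for Neurog3 with ISX-9, at a median of 37328 reads. The part of depth in those shares was not tested, since the thinned call also asks for fewer members. The same wells enter all 4 splits, so the splits are not independent.

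Along Neurog3, S genes and G2/M genes parted on the DMSO plate at the cut of 500 CPM. G2/M-high wells made up 14.4% of 153 wells without Neurog3 and 3.57% of 56 wells with at least 500 CPM, a difference of -10.8 points (95% Newcombe interval -17.7 to -1.06). S-high wells made up 17.0% and 16.1%, a difference of -0.92 points (-10.9 to 11.9). Over the members, the median log2 ratio between those groups was -0.88 for G2/M genes and 0.16 for S genes, beside 0.16 for 8750 genes tested in the same way. At least 2-fold lower in Neurog3-high wells were 12 of 29 G2/M members and 0 of 21 S members, against 3.38% of all genes. Top2a stood at 180 CPM in wells without Neurog3, 175 in the middle group and 75.1 in Neurog3-high wells. Mki67 stood at 115, 100.2 and 38.5 CPM, and Aurkb at 31.1, 28.8 and 7.54 CPM. Pcna stood at 547, 457 and 543 CPM and Mcm6 at 119, 88.8 and 143 CPM. Rrm2 went with the G2/M genes, at 207, 158 and 101 CPM. The pooled S level of Neurog3-high wells leaned on 1 well, which held 25.2% of their S reads. Without the well with the most S reads in each group, the S sums were 1335 CPM in Neurog3-high wells and 1436 CPM without a read. By well, the mean S sum was 676 and 916 CPM, and the median 228 and 263 CPM. At a cut of 2000 CPM the pooled S level was lower too, and the G2/M genes were lower still. Of 36 such wells, 5 (13.9%) were S-high and 0 were G2/M-high (up to 9.74% by the exact interval). In the 36 DMSO wells with at least 2000 CPM of Neurog3 the S genes summed to 965 CPM, against 1595 CPM at 500 CPM or more and 1551 CPM without a read, and their median log2 ratio was -0.56, while the G2/M genes summed to 249.7 CPM with a median of -2.22.

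With ISX-9 the Neurog3 split gave another result. G2/M-high wells made up 3.80% of 79 wells without Neurog3 and 5.00% of 120 wells with at least 500 CPM, a difference of 1.20 points (-6.09 to 7.23). The wells without Neurog3 were shallow, with a median of 11841 reads against 26810 in Neurog3-high wells. In thinned wells, where 2 members read sufficed, the shares were 16.5% and 13.3%, so the sign of the difference was the opposite one under that call. The median log2 ratio was 0.39 for G2/M members and -0.24 for S members, beside 0.05 for 9230 genes. At least 2-fold higher were 7 of 29 G2/M members, against 7.31% of all genes. Of these 7, Aurka, Kif11 and Troap lay under the mean of 10 CPM that the all-gene share asks for. At least 2-fold lower were 1 G2/M member (Stil) and 1 S member (Cdc6), against 6.57%. Cenpf stood at 4.07 CPM in wells without Neurog3, 162 in the middle group and 34.9 in Neurog3-high wells. Top2a stood at 71.0, 274 and 76.9 CPM, nearly equal at the ends. S-high wells made up 8.86% and 7.50%. The difference between the plates in this split was not tested.

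Neurod1, a factor that follows Neurog3, split both lists in the same direction on both plates. With DMSO, G2/M-high wells made up 15.4% of 162 wells without Neurod1 and 2.38% of 84 wells with at least 500 CPM, a difference of -13.1 points (-19.6 to -5.48). S-high wells made up 19.8% and 4.76%, a difference of -15.0 points (-22.4 to -6.27). With ISX-9 the G2/M-high share was 11.3% of 115 and 4.20% of 119 wells (-7.10 points, -14.6 to -0.13), and the S-high share 14.8% and 7.56% (-7.22 points, -15.6 to 0.96). All 29 G2/M members were lower in Neurod1-high wells on each plate, with medians of -1.64 with DMSO and -0.85 with ISX-9. At least 2-fold lower were 22 of 29 G2/M and 6 of 21 S members with DMSO, against 6.66% of all genes, and 10 of 29 and 10 of 21 with ISX-9, against 7.0%. Cdk1 stood at 136 CPM in wells without Neurod1 and 27.2 CPM in Neurod1-high wells with DMSO, and at 243 and 49.5 CPM with ISX-9. Rrm2 stood at 209 and 44.1 CPM with DMSO and at 215 and 99.7 CPM with ISX-9. Uhrf1 stood at 38.0 and 16.5 CPM with DMSO and at 50.3 and 9.27 CPM with ISX-9. Much of what remained in Neurod1-high DMSO wells came from single wells, taken separately for each list. The well with the most S reads held 46.3% of them, and the well with the most G2/M reads held 47.3% of those. Without the top well of the list, left out after the values were seen, the S sum fell from 747 to 441 CPM. The G2/M sum likewise fell from 463 to 254 CPM.

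Tph1, the first enzyme of serotonin synthesis and a marker of enterochromaffin cells, separated the lists on the DMSO plate at the cut of 500 CPM. G2/M-high wells made up 13.1% of 168 wells without Tph1 and 2.78% of 72 wells with at least 500 CPM, a difference of -10.3 points (-16.6 to -2.28). S-high wells made up 16.7% and 12.5%, a difference of -4.17 points (-12.8 to 6.58). The median log2 ratio was -1.55 for G2/M members, of which 28 of 29 were negative, and 0.38 for S members, of which 17 of 21 were positive. At least 2-fold lower were 19 of 29 G2/M members and 0 of 21 S members, against 4.03% of all genes. Ckap2 stood at 66.4 CPM without Tph1 and 6.41 CPM in Tph1-high wells, Stil at 107 and 14.3 CPM, and Aurkb at 28.9 and 2.62 CPM. Mcm6 stood at 67.7 and 151 CPM, Cdt1 at 47.1 and 79.8 CPM, and Pcna at 413 and 573 CPM. The pooled S reads of Tph1-high DMSO wells summed to 1692 CPM, or 1542 CPM without the well with the most of them, against 1237 CPM in wells without Tph1. By well the direction was the opposite one. The mean S sum was 698 CPM in Tph1-high wells and 835 CPM without a read, and the median 154 and 283 CPM. In thinned wells 16.7% and 22.0% were S-high. The higher pooled S level was also absent at the higher cut. In the 47 DMSO wells with at least 2000 CPM of Tph1 the S genes summed to 968 CPM, and their median log2 ratio was -0.40.

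With ISX-9 the Tph1 split did not separate the lists in that way. G2/M-high wells made up 10.3% of 155 and 6.17% of 81 wells (-4.15 points, -10.9 to 4.27), and in thinned wells 17.4% and 18.5%. S-high wells made up 14.8% and 9.88% (-4.96 points, -13.0 to 4.70). The median log2 ratio was -0.05 for G2/M members and -0.62 for S members, and 2 members of each list were at least 2-fold lower, against 4.05% of all genes. Stil, at 109 and 29.7 CPM, was again low in Tph1-high wells, while Ckap2 stood at 91.1 and 123 CPM. Of the G2/M reads in these wells, 39.4% came from 1 well. Above 2000 CPM of Tph1, 0 of 47 wells with DMSO and 0 of 37 with ISX-9 were G2/M-high, which allows up to 6.38% and 8.11% by the limit of 3 wells (95% exact binomial intervals reach 7.55% and 9.49%). S-high wells numbered 3 of 47 (6.38%) and 0 of 37.

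Along Muc2, the gel-forming mucin of goblet cells, the plates differed in direction. With DMSO, G2/M-high wells made up 6.35% of 63 wells without Muc2 and 13.5% of 104 wells with at least 500 CPM (7.11 points, -3.21 to 15.9). With ISX-9 they made up 8.14% of 172 and 5.26% of 57 wells (-2.88 points, -9.00 to 6.79). Both intervals span 0, and the difference between plates was not tested. DMSO wells without Muc2 were shallow, at a median of 12052 reads, and so were Muc2-high ISX-9 wells, at 11841. The G2/M median was 0.08 with DMSO and -0.93 with ISX-9, where all 29 were lower. At least 2-fold lower were 2 of 29 G2/M and 3 of 21 S members with DMSO, against 14.2% of all genes, and 13 of 29 and 5 of 21 with ISX-9, against 13.2%. Ccna2 stood at 32.6 and 63.5 CPM with DMSO and at 78.2 and 23.8 CPM with ISX-9, and Birc5 at 19.1 and 36.4 CPM with DMSO and 25.9 and 11.4 CPM with ISX-9. At 2000 CPM of Muc2 and above, 4 of 56 wells with DMSO and 0 of 33 with ISX-9 were G2/M-high, the latter allowing up to 9.09% by the limit of 3 wells.

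**Figure D5:**
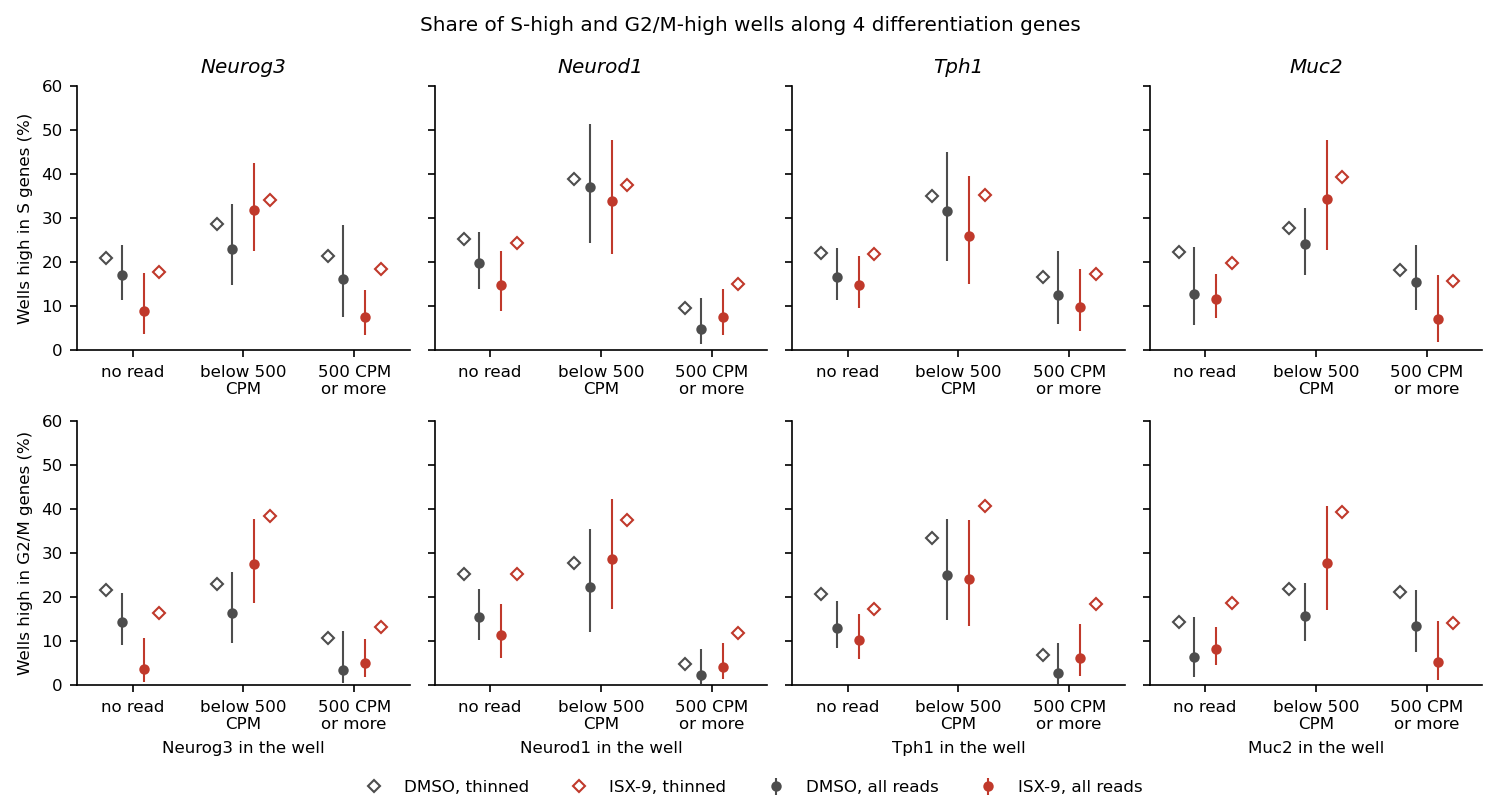
Points give the percent of wells high in S genes (top) and G2/M genes (bottom) by the level of Neurog3, Neurod1, Tph1 and Muc2 in the well, with 95% exact binomial intervals, for both plates, and open diamonds the same after thinning to 2000 reads. The Neurod1 panels are lower at 500 CPM or more than without a read on both plates, and the middle group, which holds the deepest wells, is the highest in each panel.

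Of the 6 combinations of these genes looked at, the wells with less than 500 CPM of all 4 had the largest shares of S-high and G2/M-high wells on both plates. With DMSO, 27 of 81 such wells (33.3%, 23.2 to 44.7%) were S-high and 20 (24.7%, 15.8 to 35.5%) G2/M-high. With ISX-9 the numbers were 26 of 63 (41.3%, 29.01 to 54.4%) and 21 (33.3%, 21.95 to 46.3%). With ISX-9 these wells were also the deepest of the 6 sets, at a median of 39048 reads, while with DMSO they had 31343. After thinning, 39.5% and 44.4% of them were S-high and 34.6% and 50.8% G2/M-high, again the largest shares on each plate. The wells with at least 500 CPM of both Neurog3 and Tph1 were few. With DMSO, 5 of 23 were S-high (21.7%, 7.46 to 43.7%) and 0 of 23 G2/M-high (up to 14.8% by the exact interval), and all 5 were S-only wells. With ISX-9, 2 of 29 were S-high and 1 was G2/M-high. Among G2/M-high wells, 2 of 39 with DMSO and 6 of 34 with ISX-9 had at least 500 CPM of Neurog3. Over all kept wells that share was 18.7% with DMSO and 41.4% with ISX-9.

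Split by Neurog3 at 500 CPM, the plates compare in opposite ways for the pooled S genes. In Neurog3-high wells the S genes summed to 1595 CPM with DMSO (56 wells) and 1118 CPM with ISX-9 (120 wells), with a median log2 ratio of -0.45 over members against 0.07 over all genes. A single well held 25.2% of these S reads with DMSO and 25.4% with ISX-9. By well, the mean S sum was 676 CPM with DMSO and 614 CPM with ISX-9, while the median was 228 and 370 CPM, higher with ISX-9. In the remaining wells the S genes summed to 1479 CPM with DMSO (244 wells) and 1873 CPM with ISX-9 (170 wells), with a median of 0.33 against 0.16. The G2/M genes summed to 791 and 768 CPM in Neurog3-high wells and to 1648 and 2171 CPM in the remaining ones. Within G2/M-high wells the plates were close, with G2/M sums of 4984 and 4578 CPM and S sums of 2671 and 3011 CPM. These wells were chosen by the same G2/M rule on both plates, so the likeness of the G2/M sums is partly set by it. The median log2 ratio there was -0.17 over G2/M members and 0.25 over S members, against 0.13 over all genes.

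The G2/M-high wells were compared with wells high in neither list for genes outside the members. Counts below are of genes that reached a mean of 10 CPM in these wells, beside the size of the whole list. On the DMSO plate 9.04% of 8655 genes were at least 2-fold higher and 6.31% at least 2-fold lower, and on the ISX-9 plate 9.52% and 9.04% of 9303 genes. The G2/M-high wells were also the deeper ones, as given above. Of the 35 further G2/M genes, 34 were at least 2-fold higher with DMSO and 31 with ISX-9, and of the 34 further S genes 26 and 29. From the E2F, RB and DREAM group, 6 of 20 genes were 2-fold higher on each plate. The atypical repressor gene E2f8 stood at 39.1 CPM in G2/M-high wells and 0.558 CPM in the others with DMSO, and at 33.0 and 0.321 CPM with ISX-9. Foxm1, the forkhead activator of G2/M genes, stood at 27.4 and 0.697 CPM with DMSO and at 32.2 and 1.12 CPM with ISX-9. Ccnd1 stood at 291 and 139 CPM with DMSO and at 389 and 134 CPM with ISX-9. Cdkn1b, at 219 and 393 CPM with DMSO and 245 and 554 CPM with ISX-9, was lower in G2/M-high wells on both plates. Cdkn1a stood at 417 and 558 CPM with DMSO but at 362 and 353 CPM with ISX-9.

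Lineage genes differed between the same wells. Stem cell genes were higher in G2/M-high wells, with 4 of 7 at least 2-fold higher with DMSO and 5 of 7 with ISX-9. Ascl2, a Wnt-dependent stem cell factor, stood at 277 CPM in G2/M-high wells and 59.4 CPM in wells high in neither with DMSO, and at 119 and 8.66 CPM with ISX-9. Lgr5, the crypt stem cell receptor, stood at 281 and 142 CPM with DMSO and at 229.9 and 63.2 CPM with ISX-9, and Slc12a2, a transporter of the crypt base, at 1212 and 428 CPM and at 895 and 123 CPM. All 10 enterochromaffin genes with DMSO and 9 of 10 with ISX-9 were at least 2-fold lower in G2/M-high wells. Of 9 endocrine progenitor genes, 6 were at least 2-fold lower with DMSO and 9 with ISX-9, with Neurog3 at 127 and 969.6 CPM with DMSO and at 625 and 4812 CPM with ISX-9. Neurod1 stood at 115 and 634 CPM and at 257 and 1009 CPM. Of 8 goblet genes, 6 and 7 were at least 2-fold lower, although the median G2/M-high DMSO well had a goblet sum of 4416 CPM against 2539 CPM in the others. Of 7 Paneth genes, 0 were at least 2-fold lower with DMSO and 3 with ISX-9.

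Outside all lists, the genes most like the members over wells were ranked by the mean of the 2 plates' Spearman correlations with the summed CPM, among the 8515 genes with a read in 10% or more of the wells on both plates. For the S sum they were Stmn1 (mean correlation 0.50), Shmt1, Cenpw, Amica1, Cftr, Topbp1, Pold1, Rpa1, Ncaph and Mgst1 (0.45). For the G2/M sum they were Pbk (0.44), Tuba1b, Pold1, Ncaph, Spag5, Asf1b, Knstrn, Cenpm, Ncapd2 and C330027C09Rik (0.41). Pold1 and Ncaph were on both. After thinning, Tuba1b was at 0.33 with DMSO and 0.34 with ISX-9, Rpa1 at -0.0048 and 0.036, and Pbk at -0.0031 and 0.18. Thinning leaves few reads of a low gene, so the part of depth in these values was not tested. The members themselves correlated with the rest of their own list at 0.17 (Ccne2) to 0.54 (Mcm5) for S genes and at 0.32 (Troap) to 0.49 (Ccna2) for G2/M genes. These correlations are over the wells of 2 libraries and carry no test.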

How the data were processed

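Per the labels, single sorted cells were processed by SORT-seq with CEL-Seq2 primers and sequenced on 1 plate per treatment. The authors deposited a table of raw read counts per gene and well for each plate. The primers carry a 4-base molecular barcode, but the values reach 61032 per gene and well, so they are reads and not molecules. BWA, without a version, and build hg19 stand in the submitters' processing notes, while the gene rows carry mouse symbols. The reference and the counting rule are not given in the sources used here. Near-identical copies and antisense genes could share reads.

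Spike-in and mitochondrial rows were set aside, wells with at least 2000 remaining reads and 500 genes were kept, and CPM were taken per well or over pooled wells (Python 3.11.15, numpy 2.4.6, pandas 2.3.3, scipy 1.17.1). Log2 ratios used a pseudocount of 5 CPM. All-gene medians and percentages used genes whose mean over the compared groups reached 10 CPM. In the splits along Neurog3, Neurod1, Tph1 and Muc2 the list medians and member counts used all members, also those below that mean. With 1 plate per treatment no test was run, and wells were not treated as replicates. The ribosomal RNA gene Rn45s took 12.6% of kept reads with DMSO and 6.10% with ISX-9. The pooled log2 ratio and the rule for high wells were tested on simulated data, and thinning was checked to leave 2000 reads per DMSO well. The other steps were not tested in that way.

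The members and lists were chosen with earlier results of these data known. All members could be named. Of each further cell cycle list the 4 genes with the widest plate difference were eligible, and of all other genes the 10 most correlated with each sum. Genes named in the comparison of G2/M-high wells were picked after their values were seen. Alternatives covered scaling, pseudocount, filters on wells and genes, thinning, the thresholds of the well calls, and leaving out the deepest wells.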

Additional observations from a re-analysis of the deposited data

Results flagged for a closer look

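Wells left out for low depth still held reads of the members. The 84 left-out DMSO wells gave 382 CPM of S genes and 789 CPM of G2/M genes, from 61 and 126 reads, and the 94 left-out ISX-9 wells gave 667 and 883 CPM, from 74 and 98 reads. All 4 values lie above what 3 reads would give on these wells (18.8 CPM with DMSO, 27.0 CPM with ISX-9) and below the levels of kept wells.

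In 3 splits the plates pointed in opposite directions. The share of G2/M-high wells at 500 CPM of Neurog3 or more, minus that in wells without a read, was -10.8 points with DMSO and 1.20 points with ISX-9. For Muc2 it was 7.11 and -2.88 points, and for S-high wells along Muc2 2.69 and -4.61 points. The difference between the plates was not tested in any of them. In thinned wells only the G2/M split along Muc2 kept opposite directions. There the G2/M-high share along Neurog3 was 21.6% without a read and 10.7% at 500 CPM or more with DMSO, and 16.5% and 13.3% with ISX-9, and the S-high share along Muc2 was 22.2% and 18.3%, and 19.8% and 15.8%. The S median along Muc2 was also below 0 with DMSO (-0.68).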

How the results depend on the processing

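No paired analysis was possible because there was 1 plate per treatment, and for the same reason no plate could be left out in turn. No result past a threshold was reversed by any setting run. With no filter on low values the S median relative to all genes turned from -0.05 to 0.02, and the G2/M median was -0.02. The S and G2/M medians relative to all genes (-0.05 and -0.09) were -0.26 and -0.24 with the mean of per-well CPM and -0.18 and -0.51 without the deepest 5% of wells. Members 2-fold apart between plates (0 in each list) numbered 1 S gene with per-well means, 1 S and 4 G2/M genes in thinned wells, 2 G2/M genes without the deepest wells and 2 with a pseudocount of 1. Mcm5 reached -1.18 and -1.08, Ccnb2 1.63, Ckap2 1.02, Tpx2 -1.55 and Troap -2.57 in such settings. Scaling by spike-ins moved the median of all genes from 0.15 to -0.08, and scaling by the median of ratios moved it to 0, so the sign of a small ratio depends on the scaling.

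S-high shares with DMSO were 24.3% at a summed CPM of 500, 10.3% at 2000 and 26.7% in wells with 10000 reads and 1000 genes, and with ISX-9 22.8%, 9.31% and 23.2%, 11.3% without the deepest wells and 23.1% after thinning. G2/M-high shares with DMSO were 19.0% at 500 CPM, 18.4% in the 10000-read wells and 60 of 300 wells (20%) after thinning. With ISX-9 they were 16.6% at 500 CPM, 7.59% at 2000, 16.2% with 3 members, 16.5% in the 10000-read wells, 8.00% without the deepest wells and 22.1% after thinning. Differences in points moved to 9.04 for S and Neurog3 with ISX-9 at 500 CPM, -16.9 for S and Neurod1 with ISX-9 in the 10000-read wells, -20.5 for G2/M and Neurod1 with DMSO after thinning, and -14.8 for S and Tph1 with ISX-9 at 2000 CPM of Tph1. List medians passed 2-fold at 2000 CPM of the splitting gene: -2.22 for G2/M and Neurog3 with DMSO, -1.97 for S and Neurod1 with DMSO, and with ISX-9 -1.67 and -1.92 for S and G2/M along Neurod1, -1.93 and -2.16 along Tph1, and -1.37 and -2.15 along Muc2. The S median along Neurod1 with ISX-9 was -1.02 in the 10000-read wells. The correlation of S and G2/M sums with DMSO was 0.32 after thinning. With DMSO the S medians along Neurog3 and Tph1 turned from 0.16 and 0.38 to -0.56 and -0.40 at 2000 CPM of the splitting gene. The cause of these shifts was not tested.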
